A study of Mus musculus with 6 samples.

Results

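Focal losses are ATAC-Seq sites that were less accessible in HAT1-/- than in HAT1+/+ primary mouse embryonic fibroblasts (pMEFs). The sites around them changed little on average. They were chosen by the authors' genotype means alone. The autosomal sites were put in chromosome order, and the change of a site was taken as its HAT1-/- level minus its HAT1+/+ level on the log2 scale. A focal loss had a change of -1 or less, a level over both genotypes of at least 4, which is 16 normalized reads, and a mean change of the 25 consecutive sites centred on it between -0.30 and 0.30. The rule found 1471 focal losses among the 229903 tested sites, 225604 of which are on autosomes.

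The series compared 3 HAT1+/+ pMEF lines (labelled HAT1 WT) with 3 HAT1-/- lines (labelled HAT1 KO), all on a C57bl6 background. The lines were grown in DMEM with serum from mid-gestation embryos after removal of the internal organs. The HAT1-/- embryos were homozygous for the mutant Hat1 allele in every cell, and a line is a mixed population rather than a clone. In ATAC-Seq a transposase cuts open chromatin, and the reads at a site measure how accessible it is. Levels were available only as the mean of each genotype, so each level below is the authors' mean over 3 lines without a spread. The authors' own comparison of the genotypes at each site, with a p-value and an FDR, was available but not used. No test between genotypes was made, and whether 1 line drives a value could not be looked at. The titles of a HAT1+/+ and a HAT1-/- line share a number, and the labels do not say whether it marks a litter.

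HAT1 is the enzyme that acetylates lysines 5 and 12 of newly made histone H4 in the cytoplasm, before the histone is carried into the nucleus and deposited on replicating DNA. Isolated accessible sites away from gene starts are often enhancers, short stretches where transcription factors hold the DNA open. In fibroblasts many of them carry words bound by AP-1, the FOS and JUN dimers that respond to growth signals, or by TEAD factors, which act with the Hippo pathway coactivators YAP and TAZ. CTCF is the factor that binds at loop anchors and insulators.

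At the Hat1 gene itself (mm10, chr2:71388958-71441622) the promoter site had authors' means of 207 (HAT1+/+) and 239 (HAT1-/-) normalized reads, and accessibility there does not report whether the coding sequence is present. The site from chr2:71421184-71421348 had 22.0 and 3.41 reads and a change of -2.69, but its level of 3.67 is under the limit of the rule, so it is not a focal loss. Start sites of most fibroblast markers were open in both genotypes. Of the 14 marker genes, 14 had a tested site within 1 kb of the start, with a median of 117 reads in HAT1+/+ and 100 in HAT1-/- cells, and the values of Vim, the fibroblast intermediate filament, were 626 and 648. The lowest were Lum (4.66 and 11.4 reads) and Dcn (18.4 and 30.7), both higher in HAT1-/- cells. Other genes of the list went the other way, such as Pdgfrb (241 and 193). A tested site within 1 kb of the start was found at 3 of the 6 hepatocyte genes, with a median of 7.62 reads in HAT1+/+ and 10.3 in HAT1-/- cells, and at none of Alb, Afp and Apoa1. It was found at 6 of the 10 skeletal muscle genes, with medians of 11.5 and 8.44 reads, the highest at Ckm (38.9 and 29.2). The 8 haematopoietic marker starts had a median of 38.7 reads in HAT1+/+ and 49.5 in HAT1-/- cells, the 5 endothelial starts 70.5 and 41.1, the 5 smooth muscle starts 90.5 and 66.3, and the 5 chondrocyte starts 55.7 and 36.8. Within the last 3 lists the genes went both ways. The 8 haematopoietic and the 3 hepatocyte starts were all higher in HAT1-/- cells, and the 6 skeletal muscle starts were all lower. The 4 adipocyte starts were all lower as well, with medians of 89.3 and 70.9 reads. Epithelial and neural genes went both ways, with medians of 24.2 and 22.5 reads and of 37.1 and 30.7. Of the endothelial genes, Tek had 70.5 and 41.1 reads and Cdh5 11.8 and 21.9. The share of each cell type in a line is not known, and the part of these differences in the focal losses was not tested. In such mixed cultures fewer cells of a type and lower accessibility in each cell cannot be told apart.

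The central 200 bases of 5 of the focal losses with the highest HAT1+/+ level are shown first, since they are among the most accessible sites that met the rule. All are from the plus strand of GRCm38, the same assembly as mm10, and capitals mark any match to one of 6 words searched on both strands: TGANTCA for AP-1, CCAGNNGGC for CTCF, GGAATG for TEAD, TGTGGTT for RUNX, GGGCGG for the GC-box bound by SP factors, and CAGCTG for an E-box. Words were counted separately, so a base may belong to more than 1.
Dock3 intron, chr9:106935093-106935292: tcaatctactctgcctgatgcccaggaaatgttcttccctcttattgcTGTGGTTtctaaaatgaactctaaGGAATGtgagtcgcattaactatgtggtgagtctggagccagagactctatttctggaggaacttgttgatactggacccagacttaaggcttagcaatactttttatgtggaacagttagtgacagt
Distal site on chromosome 8, chr8:19980147-19980346: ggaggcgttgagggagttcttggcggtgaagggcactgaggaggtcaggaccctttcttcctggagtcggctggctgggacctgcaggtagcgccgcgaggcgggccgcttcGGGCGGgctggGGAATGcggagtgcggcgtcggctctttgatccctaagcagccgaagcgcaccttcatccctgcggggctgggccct
Gse1 intron, chr8:120416861-120417060: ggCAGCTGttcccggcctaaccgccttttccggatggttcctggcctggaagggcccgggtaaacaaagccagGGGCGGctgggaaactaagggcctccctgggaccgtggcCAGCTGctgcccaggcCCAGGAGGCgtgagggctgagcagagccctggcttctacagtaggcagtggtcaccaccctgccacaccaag
Distal site on chromosome 11, chr11:89145425-89145624: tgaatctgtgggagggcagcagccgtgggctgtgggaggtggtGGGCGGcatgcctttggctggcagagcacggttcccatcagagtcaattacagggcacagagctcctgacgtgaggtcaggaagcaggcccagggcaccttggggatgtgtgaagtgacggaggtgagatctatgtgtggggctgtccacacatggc
Cdk5rap2 intron, chr4:70311517-70311716: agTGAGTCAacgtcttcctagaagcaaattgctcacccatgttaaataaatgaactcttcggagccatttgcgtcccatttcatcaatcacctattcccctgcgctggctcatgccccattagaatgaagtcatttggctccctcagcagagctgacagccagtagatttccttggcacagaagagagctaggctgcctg

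The focal loss in an intron of Dock3, which encodes a guanine nucleotide exchange factor for RAC, lies at chr9:106934913-106935471, 17.1 kb from the nearest gene start. Its authors' mean was 224 reads in HAT1+/+ cells, the highest of all focal losses, and 85.6 in HAT1-/- cells, a change of -1.39. The distal site at chr8:19979822-19980670 had 221 and 42.5 reads, a change of -2.38, and its centre is rich in G and C (68.0%). Both of these windows hold a TEAD word. The site in an intron of Gse1, at chr8:120416585-120417335, went from 189 to 93.7 reads and is the only one of the 5 shown with a CTCF word. The distal site at chr11:89145215-89145834 went from 174 to 52.7 reads. That in an intron of Cdk5rap2, which encodes a centrosomal protein, at chr4:70311247-70311985, went from 163 to 75.6 reads. Its window carries the AP-1 word near its left end.

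The 4 focal losses with the lowest change are shown next, because they lost most. None of their central 200 bases holds any of the 6 words.
Distal site on chromosome 5, chr5:9230666-9230865: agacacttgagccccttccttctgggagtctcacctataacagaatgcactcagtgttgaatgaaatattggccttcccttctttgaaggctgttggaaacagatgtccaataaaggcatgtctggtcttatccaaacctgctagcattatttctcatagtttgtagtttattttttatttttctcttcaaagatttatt
Distal site nearest to Efnb2, chr8:7919544-7919743: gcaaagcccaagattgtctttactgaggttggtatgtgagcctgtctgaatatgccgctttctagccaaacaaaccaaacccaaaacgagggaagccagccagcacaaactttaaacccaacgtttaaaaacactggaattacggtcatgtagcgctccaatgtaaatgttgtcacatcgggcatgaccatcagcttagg
Distal site on chromosome 2, chr2:19340252-19340451: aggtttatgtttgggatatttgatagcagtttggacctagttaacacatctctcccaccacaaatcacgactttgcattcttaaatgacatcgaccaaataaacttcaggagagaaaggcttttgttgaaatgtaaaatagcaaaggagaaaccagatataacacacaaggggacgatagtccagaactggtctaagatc
Wdr72 intron, chr9:74156887-74157086: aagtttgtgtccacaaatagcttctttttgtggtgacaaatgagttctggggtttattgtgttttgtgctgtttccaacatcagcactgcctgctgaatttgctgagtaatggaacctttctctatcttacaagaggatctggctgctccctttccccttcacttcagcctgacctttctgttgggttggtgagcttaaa

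At the first of these, chr5:9230547-9230984, the authors' mean was 27.5 reads in HAT1+/+ and 4.5 in HAT1-/- cells, a change of -2.61. The nearest coding start, that of 9330182L06Rik, is 35.4 kb away. The site at chr8:7919251-7920036 went from 74.5 to 12.6 reads, a change of -2.56, and lies 720 kb from the nearest coding start, that of Efnb2, the gene of the ligand ephrin-B2. The site at chr2:19340023-19340679, 31.1 kb from Msrb2, went from 46.2 to 8.06 reads. That in an intron of Wdr72 at chr9:74156674-74157298 went from 66.3 to 11.7 reads. The next 6 in this order lay between -2.23 and -2.47. They are chr5:67532762-67533230 near Shisa3, chr1:151066378-151066781 near Hmcn1, the chr8 site of 221 reads described above, chr6:113656788-113657187 in an intron of Irak2, a kinase gene of interleukin-1 signalling, chr15:87019073-87019631 near Fam19a5, and chr8:92628724-92629561 near Irx6. Of these 10 sites with the lowest change, 8 were distal intergenic and 2 intronic.

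Across the 1471 focal losses the median level was 34.8 reads in HAT1+/+ cells (from 21.3 to 224) and 15.0 in HAT1-/- cells (from 4.5 to 93.7). Added over all of them, HAT1-/- cells kept 42.9% of the HAT1+/+ reads, 27470 of 64038. The median change was -1.16 and most values lay close to the limit of the rule: 177 sites had a change of -1.5 or less, 17 of -2 or less and 0 of -3 or less. Just inside the limit, from -1.05 to -1, there were 330 focal losses, and just outside it, from -0.99 to -0.95, there were 391 sites that met the other conditions. A level between 4 and 4.1 was found at 175 focal losses, and 153 more sites with a level from 3.9 to 3.99 would have met the other conditions. The neighbourhood mean was between -0.30 and -0.25 at 162 focal losses and just below -0.30, down to -0.35, at 133 sites left out. No site with a change of -1 or less and a level of at least 4 had a neighbourhood mean above 0.30.

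**Figure D1:**
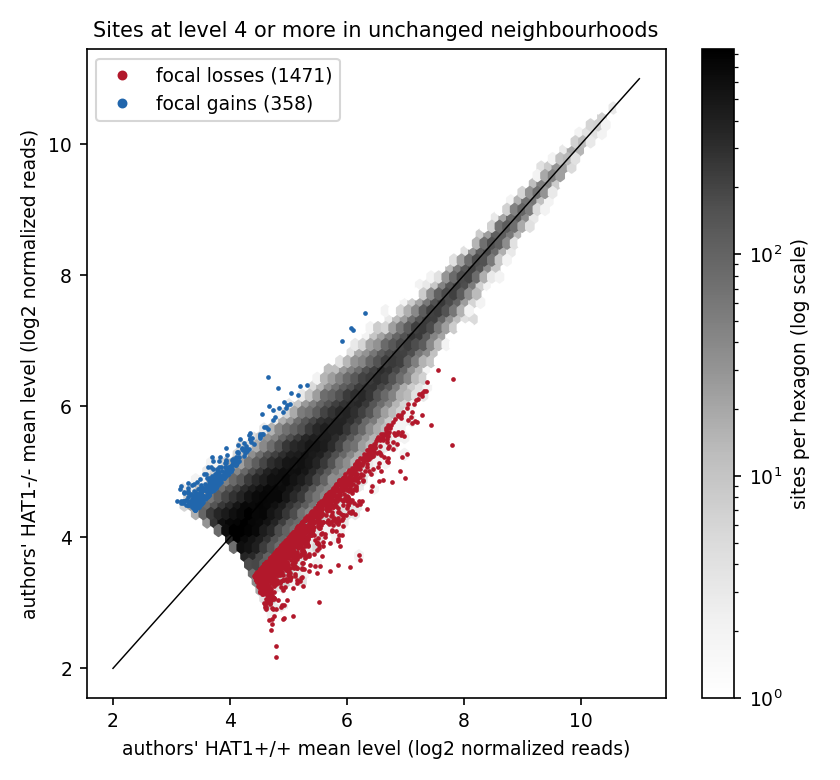
Authors' mean level of each site in HAT1-/- (vertical) against HAT1+/+ (horizontal) cells, both in log2 normalized reads, for sites at level 4 or more in unchanged neighbourhoods. Grey hexagons count all such sites on a log scale, red points are the 1471 focal losses, blue points the 358 focal gains, and the line marks equal levels. The focal losses form a band along the limit of the rule, from 21.3 to 224 reads in HAT1+/+ cells, with few points far below it.

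Of the 101371 autosomal sites at level 4 or more, 2967 (2.93%) had a change of -1 or less. The focal losses are 1471 of these, another 950, called domain losses here, had a neighbourhood mean of -0.58 or less, the cutoff of the study's HAT1-dependent accessibility domains, and 546 lay between. Within unchanged neighbourhoods 95138 sites were at level 4 or more, and 1.55% of them were focal losses. The mirrored rule, a change of 1 or more, found 358 focal gains, 0.376% of the same sites. The other 93309 sites serve as comparison sites. All of these counts rest on the values that chose the sites and are given as a description.

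Losses outnumbered gains at every level, and the more so at higher levels. Between levels 4 and 4.5, 606 of 26842 sites (2.26%) were focal losses and 234 (0.872%) focal gains. Between 5 and 5.5 there were 251 losses (1.67%) and 22 gains (0.147%), and between 6 and 7 there were 90 losses (0.759%) and 4 gains (0.0337%). Losses per gain went from 2.59 to 11.4 and to 22.5 over these bands. At level 7 or more, 3 of 10634 sites were focal losses and 0 were gains. The SD of the change over all sites of a band fell from 0.45 at level 4 to 4.5 to 0.18 at level 7 or more. The median change over autosomal sites was -0.06, and with the change centred on it the counts were 1279 losses and 498 gains.

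**Figure D2:**
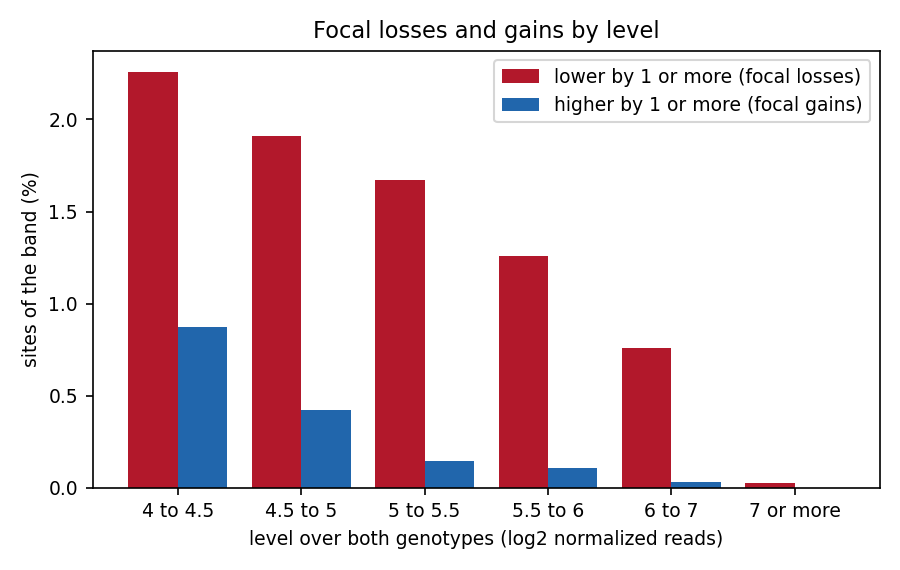
Share of sites that were focal losses (red) or focal gains (blue), in percent of the sites in unchanged neighbourhoods, in 6 bands of the level over both genotypes (log2 normalized reads). Both shares fell as the level rose, losses from 2.26% to 0.0282% and gains from 0.872% to 0, with the losses above the gains in each band.

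As the rule requires, the sites around focal losses changed little on average. The mean of the 25 sites, which includes the focal loss itself, was below 0 at 1220 of the 1471, with a median of -0.11. At comparison sites it was below 0 at 59232 of 93309, with a median of -0.04. The site next to a focal loss in chromosome order had a mean change of -0.15 on the left and -0.14 on the right, and from the third neighbour to the twelfth on the left the means lay between -0.09 and -0.03. At 13, 20 and 30 sites away, which the rule did not average, the means were -0.08 to -0.06 on the left and -0.09 to -0.06 on the right. Around domain losses the twelfth neighbour on the left still had a mean change of -0.87. The 25 sites around a focal loss spanned a median of 180 kb.

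**Figure D3:**
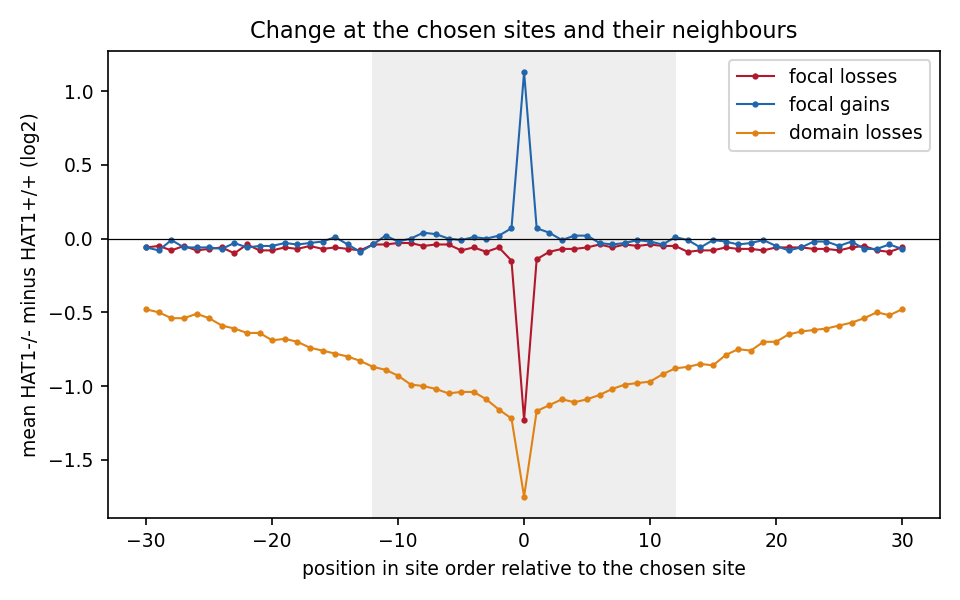
Mean change (HAT1-/- minus HAT1+/+, log2) at chosen sites and at the 30 tested sites on each side, for focal losses (red), focal gains (blue) and domain losses (orange). The grey band marks the 12 sites on each side that the rule averaged with the chosen site. The mean of -1.23 at focal losses returned to -0.15 and -0.14 at the adjoining sites, while that of domain losses stayed low.

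By distance, the few tested sites whose centres lay within 0.5 kb of a focal loss had a mean change of -0.42 (141 pairs of sites), and those from 0.5 to 1 kb away -0.29 (318 pairs). From 1 to 2 kb the mean was -0.16 and from 2 to 5 kb -0.06, the last with 1178 pairs. Sites within 0.5 kb of a comparison site had a mean of -0.04. Near focal gains the sign was the opposite, with 0.40 within 0.5 kb (34 pairs) and 0.06 from 2 to 5 kb. The rule bounds the mean of these neighbours, so the values are a description.

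**Figure D4:**
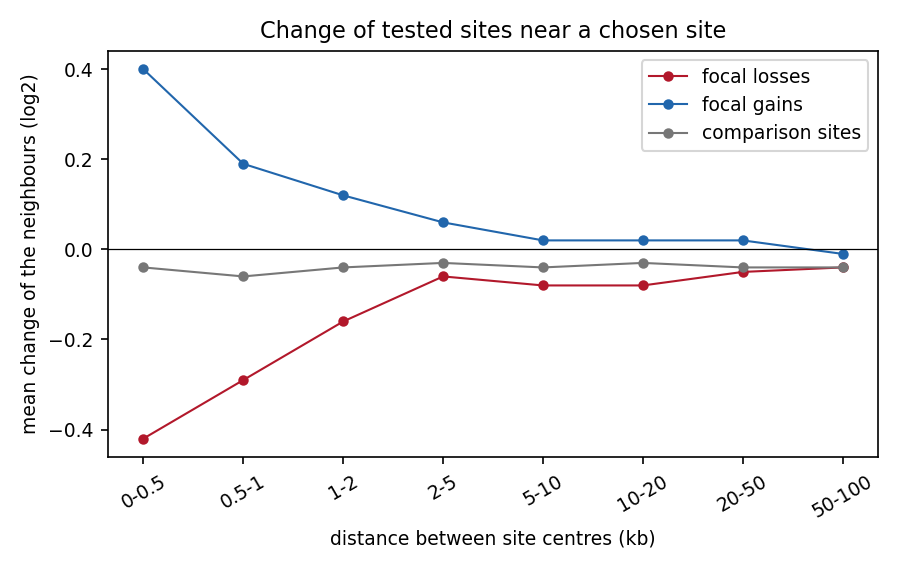
Mean change (log2) of the other tested sites around focal losses (red), focal gains (blue) and comparison sites (grey), by the distance between site centres in kb. Red values rise from -0.42 within 0.5 kb to -0.06 at 2 to 5 kb, and blue values fall from 0.40 to 0.06 over the same distances.

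Lowered sites were more frequent next to focal losses than next to comparison sites. A change of -1 or less, at any level, was found at 6.8% of left and 7.27% of right neighbours. Beside comparison sites these shares were 2.88% and 2.85%, and the difference was not tested. Another focal loss lay within 10 kb of 55 of the 1471 focal losses (3.74%), within 100 kb of 334 (22.7%) and within 1000 kb of 1157 (78.7%). In chromosome order 65 focal losses (4.42%) were next to another, where focal losses are 1471 of the 225604 autosomal sites. Such counts were not made for other sets, so they do not show whether focal losses were scattered or clustered. Every autosome carried some, from 1.07% of the sites in unchanged neighbourhoods on chromosome 19 and 1.11% on chromosome 11 to 1.93% on chromosomes 13 and 14 and 1.99% on chromosome 12. Chromosome 2, which carries Hat1, had 105 (1.38%). Within 5 Mb of Hat1 there were 4 focal losses among 444 sites (0.901%). The closest was at a transcript start within Map3k20, 0.856 Mb away, with 48.2 reads in HAT1+/+ and 20.4 in HAT1-/- cells, followed by a site in an intron of B3galt1 at 3.57 Mb (22.5 and 9.45 reads) and an intronic site near Gm1322 at 4.23 Mb (28.1 and 12 reads).

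The features that follow were not used by the rule. Each was compared chromosome by chromosome with an exact two-sided sign-flip permutation test over the autosomes with at least 5 sites of both sets, and p-values were adjusted by the Benjamini-Hochberg method over the 42 tests of 14 features against 3 sets of sites. Against comparison sites, each focal loss was set against those of the same chromosome and the same level band. Values are means over chromosomes, with the SD between chromosomes.

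Focal losses were wider than comparison sites of the same level. The log2 width was 8.86 against 8.50, a difference of 0.36 ± 0.05 (SD, n = 19 chromosomes), above 0 on 19 of 19 (permutation test, adjusted p = 2.3e-05). The unadjusted p of 3.8e-06 is the smallest that 19 chromosomes allow. At levels from 5 to 5.5 the median width was 588 bp for focal losses and 433 bp for comparison sites. They were also wider than focal gains, by 0.49 ± 0.12 on the log2 scale on 19 of 19 chromosomes (adjusted p = 2.3e-05, same permutation test). Level was not matched in this comparison or in that with domain losses. Under the 7 other settings tried against focal gains, level bands among them, the difference ran from 0.341 to 0.514 and stayed past the threshold. The difference of 0.07 ± 0.15 from domain losses did not pass the threshold (adjusted p = 0.0902, permutation test). Tested sites come from peaks of several lines, so a site's width also follows how peaks were called and merged, and the part of this was not tested.

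Promoters, taken as 3 kb on either side of any annotated transcript start, held 295 of the 1471 focal losses (20.1%). Introns held 569 (38.7%), distal intergenic sequence 570 (38.7%), exons 17, UTRs 13 and the 300 bp downstream of genes 7. The promoter share was 20.1% against 29.3% at comparison sites of the same level, a difference of -9.20 percentage points ± 3.99 (SD, n = 19), below 0 on 19 of 19 chromosomes (permutation test, adjusted p = 2.3e-05). The distal intergenic share was higher by 7.87 points ± 6.79, above 0 on 17 of 19 (adjusted p = 3.5e-04, permutation test), and with focal losses of -1.5 or less only it was 8.08 points and not past the threshold (adjusted p = 0.0674, permutation test). Focal gains had nearly the same promoter share of 20.4%, and the difference of -0.30 points ± 10.6 was well within the spread (adjusted p = 0.902, permutation test). Domain losses stood on the other side, with a promoter share of 9.57% and a distal intergenic share of 62.7%. Focal losses exceeded them by 10.3 points ± 6.30 in the first, on 18 of 18 chromosomes, and fell below them in the second by a difference of -25.0 points ± 17.5, on 17 of 18 (adjusted p = 2.5e-05 and 4.3e-05, permutation tests).

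Their surroundings lay between those of comparison sites and of domain losses. The 500 kb on each side held a mean of 23.2 gene starts around focal losses and 27.0 around comparison sites, a difference of -3.85 ± 2.06 (SD, n = 19; adjusted p = 2.5e-05, permutation test), and exceeded domain losses by 13.4 ± 4.15 (SD, n = 18; adjusted p = 2.5e-05, permutation test). Tested sites within 100 kb on each side numbered 27.3 around focal losses, 31.6 around comparison sites and 7.21 around domain losses. The GC content of the central 200 bases was 48.0% against 50.5% at comparison sites, a difference of -2.51 points ± 1.25, below 0 on 19 of 19 chromosomes (adjusted p = 2.3e-05, permutation test), and 4.13 points ± 2.01 above that of domain losses on 18 of 18 (adjusted p = 2.5e-05, permutation test). Against focal gains the GC difference of -0.74 points ± 1.67 did not pass the threshold (adjusted p = 0.109, permutation test). The number of CpG dinucleotides per 100 bases was lower than at comparison sites as well (1.44 against 1.89, adjusted p = 2.3e-05, permutation test), but outside promoters this difference was -0.0084 (adjusted p = 0.881, permutation test). The repeat-masked share of the window, 9.61% against 9.86%, did not differ past the threshold (adjusted p = 0.531, permutation test), but in windows of 400 bases the difference of -0.759 points was past it (adjusted p = 0.0112, permutation test).

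The TEAD word was more frequent and the AP-1 word less frequent in focal losses than in comparison sites. In these comparisons the sites were not matched for GC content or width, and the central 200 bases cover less of a wider site. GGAATG stood in the central 200 bases of 23.7% of focal losses and 16.7% of comparison sites, a difference of 6.93 points ± 4.14 (SD, n = 19), above 0 on 18 of 19 chromosomes (permutation test, adjusted p = 3.4e-05). Against focal gains, with 13.2%, it was 10.4 points ± 5.89, above 0 on 19 of 19 (adjusted p = 2.3e-05, permutation test). Against domain losses, with 24.0%, it was -0.39 points ± 10.3 (adjusted p = 0.899, permutation test). Over all 225604 autosomal sites 15.5% held this word. The difference from comparison sites was also past the threshold outside promoters, at 5.53 points ± 5.00 (adjusted p = 0.00102, permutation test). With focal losses of -1.5 or less only, it was 4.70 points and no longer past it.

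TGANTCA stood in 20.4% of focal losses and 27.2% of comparison sites, a difference of -6.83 points ± 5.75 (SD, n = 19), below 0 on 16 of 19 chromosomes (adjusted p = 5.4e-04, permutation test). Focal gains had 27.9% (difference of -7.49 points ± 9.90, below 0 on 15 of 19, adjusted p = 0.00865, permutation test). The widest gap of the 3 was with domain losses, where 42.3% held the word and the difference was -21.6 points ± 7.98, below 0 on 18 of 18 (adjusted p = 2.5e-05, permutation test). Over all autosomal sites 22.9% held it. Among the 1471 focal losses, 64 held both words, 233 only AP-1, 277 only TEAD and 897 neither. In comparison sites the word found alone was more often AP-1 (20.8%) than TEAD (11.4%), and in focal losses the shares were 15.8% and 18.8%. Inside promoters 24.4% of focal losses and 11.7% of comparison sites held the TEAD word, without matching for level.

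The CTCF word stood in 6.17% of focal losses and 6.65% of comparison sites, a difference of -0.475 points ± 1.71 that did not pass the threshold (adjusted p = 0.311, permutation test). It was more frequent than in focal gains by 2.27 points ± 3.83, above 0 on 13 of 19 chromosomes (adjusted p = 0.0395, permutation test), and this call was lost under each of the 8 other settings tried. RUNX was less frequent in focal losses than in focal gains by a difference of -4.82 points ± 8.38 (7.81% against 12.6%, adjusted p = 0.0444, permutation test), lost under 7 of 8 other settings. The GC-box stood in 5.91% of focal losses and 8.54% of comparison sites (adjusted p = 7.8e-04, permutation test), and outside promoters the difference was -0.231 points (adjusted p = 0.804, permutation test). The E-box word showed no difference past the threshold against any of the 3 sets, with -1.15 points against comparison sites, but with focal losses of -1.5 or less only this was -5.92 points and past it (adjusted p = 0.0238, permutation test). In all, 10 of 14 features passed against comparison sites, 5 against focal gains and 7 against domain losses. A word is a match of letters and does not show that the factor was bound.

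**Figure D5:**
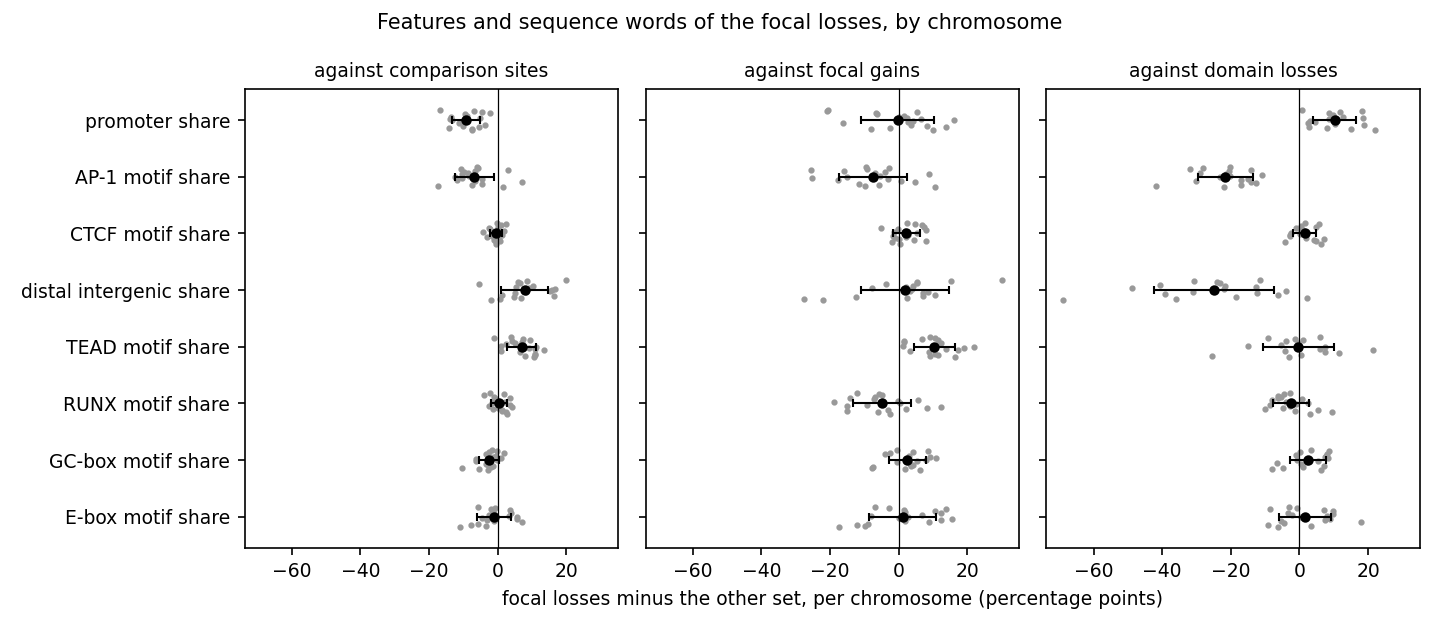
Difference in the share of sites with a feature or sequence word, focal losses minus the other set, in percentage points. Grey points are chromosomes (19, or 18 against domain losses), black points their mean and bars the SD. The TEAD share lies above 0 against comparison sites and focal gains and near 0 against domain losses, and the AP-1 share lies below 0 in all 3 panels.

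The focal losses were also divided by the size of the loss. The TEAD word stood in 22.9% of the 992 sites with a change from -1 to -1.25 and in 25.6% of the 312 below that down to -1.5, and the AP-1 word in 21.3% and 19.2% of them. Of the 150 sites from there down to -2, 14.7% held the AP-1 word and 18.7% were promoters. The TEAD share of these 150 sites was lower than both TEAD shares above, so it did not rise steadily with the size of the loss. The 17 sites below -2 were distal intergenic in 64.7% of cases and promoters in 5.88%, and 23.5% of them held each of the words. By level, the AP-1 share of focal losses was 23.3% between 4 and 4.5 and 13.3% between 6 and 7, while in comparison sites it was 26.9% and 26.3%. These splits use the values that chose the sites and were not tested.

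A transcript start of any gene type lay within 1 kb of 148 focal losses (10.1%) and of 25.0% of comparison sites, without matching for level. Within 1 kb of an annotated transcript start of a protein-coding gene, which can lie inside the gene, there were 98 of the 1471 focal losses. The highest were at Bdkrb1, the gene of the bradykinin B1 receptor (chr12:105602352-105603170, 160 reads in HAT1+/+ and 75.6 in HAT1-/- cells), and at Tenm4, a teneurin gene (chr7:96796158-96797561, 156 and 74.0 reads). The start of Foxd1, a forkhead transcription factor gene of mesenchymal cells (chr13:98353865-98354898), went from 144 to 54.9 reads. Glb1l2 followed with 132 and 55.3 reads. Mgp, which encodes matrix Gla protein, an inhibitor of calcification, had 116 and 47.8 reads (chr6:136875552-136876237), and a TEAD word at its centre. Atat1, the gene of the alpha-tubulin acetyltransferase, had 111 and 40.8 reads. The others of the 10 were Prickle2 of planar cell polarity (108 and 52.7 reads), Tgm2, the gene of a transglutaminase that cross-links matrix proteins (105 and 51.3), Armh4 (102 and 49.9) and Cd80, a costimulatory ligand gene (99.7 and 37.3). Their changes ran from -1.03 to -1.44, and 2 of the 10, Mgp and Prickle2, held a TEAD word at their centre. In 5 of the 10 (Bdkrb1, Foxd1, Glb1l2, Mgp and Armh4) the site lay within 1 kb of the outermost start of the gene, and in the other 5 at a start within it. The outermost starts of Atat1 (91.1 and 62.2 reads), Prickle2 (89.3 and 74.0) and Tgm2 (50.6 and 54.6) were not focal losses, and those of Tenm4 and Cd80 had no tested site within 1 kb.

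Genes of the fibroblast's own programme were looked at by lists. Sites in a gene or within 3 kb upstream of it were counted for each list, and 1.55% is the share of focal losses over all sites in unchanged neighbourhoods. In the list of fibroblast extracellular matrix genes, 7 of 269 sites were focal losses (2.60%), in 6 of the 34 genes found. Introns of Col4a2, which encodes a collagen IV chain of basement membranes, carried 2 of them, with 87.4 and 41.6 reads at chr8:11400316-11400812 and 67.6 and 23.8 reads at chr8:11357836-11358530. An intronic site of Vcan, the gene of the proteoglycan versican (chr13:89669410-89670423), went from 58.1 to 19 reads. A site in Nid1, which encodes the basement membrane linker nidogen, at chr13:13484279-13484745, went from 39.1 to 19.2 reads and held both the AP-1 and the TEAD word. The median change of the 269 sites was -0.13.

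In the list of mesenchymal transcription factors, 6 of 456 sites were focal losses (1.32%), each in a different gene. Beside Foxd1, a site at the start of Tead2, which encodes one of the TEAD factors, went from 32.0 to 15.9 reads (chr7:45215548-45215993, a change of -1.01, close to the limit), while the higher of the 2 sites within 1 kb of that start, at chr7:45216094-45216973, had 46.5 and 45.6 reads. An intronic site of Ebf3 had 29.9 and 12 reads. The signalling list had 7 of 587 (1.19%), but 6 of the 7 were counted for Fgfr2, whose annotated span in GENCODE vM21 is 2961 kb and runs over other genes. Of these, those with the highest level lie at a transcript start within Fam53b (76.1 and 23.4 reads) and at Tacc2 (72.0 and 33.1, and 58.1 and 29.0 reads). The remaining one is in an intron of Fgfr1, a receptor for fibroblast growth factors (chr8:25544633-25545182, 56.1 and 28.1 reads). Among imprinted genes, 3 of 123 sites were focal losses (2.44%), in introns of Kcnq1 (47.8 and 22.9 reads), Igf2r (43.1 and 21.0) and Gnas (25.6 and 11.6).

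Several lists held no focal loss. Among the 54 sites of AP-1 family genes, the 70 of Hox genes, the 99 of nuclear lamina and inner membrane genes, the 38 of H3-H4 assembly genes, the 65 of H3K9 methylation and HP1 genes and the 115 of p53, Rb and senescence genes there were 0. The same share over all sites is the 1.55% above. The cell type marker lists held 0 as well, except for 1 of 10 chondrocyte sites, in an intron of Matn3, a cartilage matrix gene, 12 kb from the start of Wdr35 (51.6 and 18.4 reads).

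By the nearest protein-coding start, the focal losses belonged to 1255 genes, 1082 of them with a single one and 6 with 4 or more. Genes were not counted in this way for other sites, so the counts do not show whether focal losses were spread or gathered. These 6 are named after their values were seen. The share of focal losses over all sites in unchanged neighbourhoods was 1.55%. Fry, which encodes a microtubule-binding scaffold of NDR kinases, had 5 of 24 sites in unchanged neighbourhoods. One of them lay near a start within the gene, with 31.6 reads in HAT1+/+ and 8.28 in HAT1-/- cells, and another, intronic, with 70.5 and 31.8. Nos1, the neuronal nitric oxide synthase gene, had 4 of 15, 1 of them at its start (61.0 and 28.6 reads) and another in the gene with 30.5 and 6.82. Mroh5 had 4 of 17, all distal intergenic, the highest with 86.2 and 27.5 reads. Nav2 had 4 of 78, all intronic, Rbfox1, an RNA splicing regulator gene, 4 of 56 and Efnb2 4 of 54.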

How the data were processed

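ATAC-Seq was measured in 3 HAT1+/+ and 3 HAT1-/- pMEF lines. According to the methods and the submitters' processing notes, the authors aligned reads to mm10 with Bowtie2 within the ENCODE pipeline, took peaks from MACS2 and compared genotypes in DiffBind 2.14.0. For each site the authors deposited log2 mean normalized reads over both genotypes and in each genotype. The table also holds columns of the authors' own comparison (a fold change, a p-value and an FDR), which were not used. The consensus rule and the normalization are not given in the sources used here. Levels are printed as reads, that is, 2 to the power of the deposited log2 value.

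The members and lists were chosen with earlier results of these data known. Chromosome lengths of GRCm38 were checked against the sites, and genes came from GENCODE vM21. Each site was assigned by its centre, in the order promoter (within 3 kb), UTR, exon, intron, downstream (300 bp) and distal intergenic. Sequence features were read in the central 200 bases. Chromosomes, not sites, were the units of the exact two-sided sign-flip permutation tests, because neighbouring sites are not independent. Level bands began at 4, 4.5, 5, 5.5, 6 and 7. The tests were first run on simulated data. There the features were drawn independently for each site, so dependence between neighbouring sites was not covered. Python 3.11.15, pandas 2.3.3, numpy 2.4.6 and matplotlib 3.10.9 were used. Named sites are the 10 focal losses with the highest HAT1+/+ level, the 10 with the lowest change, the 10 highest within 1 kb of a coding start, up to 4 per gene list and the 3 nearest to Hat1, and sequences are shown for the first 6 of the first group and the first 4 of the second. A site of the first group and a site of a gene list that this rule names are not reported here. The remaining sites of the first group are at chr12:105602352-105603170 and chr7:96796158-96797561 (the starts of Bdkrb1 and Tenm4), chr2:179390398-179391594 (distal, 156 and 58.5 reads) and chr17:50677935-50678762 (an intron of Plcl2, 156 and 71.0 reads). Alternatives were the level and change limits, the neighbourhood limit and window, centring, level bands, sequence windows of 400 bases, promoters of 1 kb, coding genes only and leaving out chromosome 1 or 2.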

Additional observations from a re-analysis of the deposited data

How the results depend on the processing

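Of the 22 feature differences past the threshold, 15 kept their direction and their side of it under every setting tried, and of the 20 others 1 did. A level of 5 or more left 472 focal losses and 37 gains, a change of 1.5 or more 177 and 5, and a neighbourhood within 0.15 of 0 left 901 losses. The width difference from domain losses passed the threshold at a level of 5 or more (0.171, log2), a change of 1.5 or more (0.191), a neighbourhood within 0.15 (0.0816), and, with settings chosen after seeing the data, in level bands (0.0962) and outside promoters (0.102). The CTCF excess over focal gains lost the threshold at 1.30 points with a neighbourhood within 0.15, 1.80 with 51 sites averaged, 1.71 with the change centred on its median, 2.13 without chromosome 2, 2.26 without chromosome 1, 2.73 in windows of 400 bases, 2.40 in level bands and 1.96 outside promoters. Against comparison sites the CTCF difference turned to 1.48 at a change of 1.5 or more and passed at -1.15 with 51 sites averaged, and against domain losses it passed at 4.1 in windows of 400 bases. The GC difference from focal gains passed at -0.981 with 51 sites and at -0.943 when centred, and turned to 0.487 in windows of 400 bases.

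These other signs turned, all of differences not past the threshold. Against focal gains they were gene starts (-0.655) and the E-box (-0.424) when centred, the promoter share without chromosome 2 (0.847), without chromosome 1 (0.823) and with coding genes only (0.329), and the repeat share within 0.15 (0.0902). Against comparison sites they were the repeat share without level bands (0.492) and RUNX at a level of 5 or more (-0.836). Against domain losses they were the E-box at a change of 1.5 or more (-2.0), and TEAD with 51 sites (0.429), without chromosome 2 (0.137), in windows of 400 bases (0.202) and in level bands (0.887). The cause was not tested. Without level bands the width difference from comparison sites was 0.124 and the promoter difference -16.4 points. Focal gains at a change of 1.5 or more or a level of 5 or more were too few on most chromosomes for the tests. No paired analysis was possible because the deposited columns used are means of each genotype, so no line could be left out either. Most focal losses rest on few reads, with a median of 15.0 in HAT1-/- cells, and how deeply each line was sequenced is unknown.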

Other observations

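Which other short words set the focal losses apart was looked at after the values were seen, by counting all 2080 words of 6 bases (with their reverse complements) in the central 200 bases, and no test was made. Focal losses were not matched for level, width or GC content here. The word with the highest excess over comparison sites, AAATAA, stood in 22.6% of focal losses and 10.7% of comparison sites, and the 7 words with the highest excess held at most 1 letter other than A and T. The TEAD word GGAATG had rank 21 by this excess, with 23.2% and 15.8%. TGCCAA, which ranked higher, has fewer A and T letters than those 7 words. Its reverse complement TTGGCA is the half-site of NFI factors, and it stood in 22.1% of focal losses, 12.7% of comparison sites, 11.7% of focal gains and 16.2% of domain losses. TAAACA, the reverse complement of the forkhead core TGTTTA, stood in 16.9%, 9.29%, 7.54% and 16.6% of the same sets. The deficits were led by words of G and C, such as CCCCGC with 4.35% against 12.3%. The word AGGAAG, which contains the core GGAA of ETS factor sites, was found in 23.8% of focal losses, 29.6% of comparison sites and 45.3% of focal gains.

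Chromosome X was outside the rule. With the same limits, 19 of its 1600 sites in unchanged neighbourhoods (1.19%) would be losses and 14 (0.875%) gains, where the autosomes had 1.55% and 0.376%. The median change of its tested sites was 0.03, against -0.06 on the autosomes. With no spread between lines these shares were not tested.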
